A study of Rattus norvegicus with 2 samples.

Results

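Genes of mitosis, the spindle checkpoint and chromosome condensation were compared between 2 colonies of C6 cells. C6 is an established line of rat glioma cells that serves as a model of malignant astrocytic tumours. The genes were taken from a list of 41, and 36 of them had an array feature that the platform annotation assigns to exactly 1 gene symbol, out of 18166 genes measured in all. Birc5, Cenpe, Spc24, Anln and Ncaph were not analysed here. Genes were taken by name from a list drawn up with earlier results of these data known, and Ccnb2, the only gene with more than 1 feature, was represented by the brighter feature.

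Each colony, No.4 and No.8, grew from C6 glioma cells as a single colony, so each stands for 1 clone, and each was measured once, on 1 whole-transcript array. Both titles call the colony undifferentiated. The same treatment text is attached to both arrays (CHIR99021 at 20 µM, an inhibitor of the kinase GSK3, with forskolin at 100 µM, which raises cyclic AMP, over 35 days), and the same medium with 10% serum. The labels do not say whether the RNA was taken before or after that treatment, and only the colony number separates the arrays.

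In mitosis, the kinase Cdk1 with its B-type cyclins drives entry, condensin folds the chromosomes, and kinetochores built on the centromeres attach them to the spindle. The spindle assembly checkpoint holds back the anaphase-promoting complex until all kinetochores are attached. The complex then marks securin and cyclin B for breakdown, and separase cuts cohesin so that the sister chromatids part. Most of these genes are transcribed in a late wave of the cell cycle and serve as markers of dividing cells in tumours, gliomas among them.

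Values are log2 levels, and a difference is the level in No.8 minus that in No.4, so that 1 unit is a 2-fold difference. Without replicates there is no test and no error for any value, and a difference between colonies cannot be told apart from a difference between cultures or hybridizations. A gene was past the floor when it reached 4.33, the median of all values of the table, in at least 1 colony, which 11069 genes did. All 36 mitotic genes were past the floor, and all 36 were also above 5.67, the 99th percentile of 1184 olfactory receptor genes, in both colonies. Such receptors are hardly expressed outside the nose, so their levels give an idea of background. Levels of different genes come from different probes and were not set against each other. Of 9 glial and neural precursor markers, 7 were past the floor. They were S100b (8.24 and 8.46 in No.4 and No.8), Vim (12.57 and 12.60), Nes (9.54 and 9.94), Cnp (8.49 and 8.97), Sox2 (9.08 and 8.44), Gja1 (7.99 and 6.86) and, in No.8, the astrocyte filament gene Gfap (4.11 and 5.17, both under 5.67). Fabp7 and Sox9 were below the floor. Genes listed as markers of other cell types were mostly below the floor. Past it were 2 of 5 neuronal genes and 2 of 5 genes listed as fibroblast and meningeal. So were 1 of 4 endothelial genes and 1 of 8 genes of microglia and macrophages. Being listed under a cell type does not make a gene, such as Pdgfra, particular to it. The genes past the floor were Rbfox3 (4.68 and 4.76), Syp (a difference of -0.07), Pdgfra (10.24 and 9.53), Col3a1 (4.61 and 5.08), Tek (4.84 and 5.97) and Cd68 (4.62 and 4.07). Of these, Rbfox3, Syp, Col3a1 and Cd68 lay under 5.67 in both colonies, and Tek lay under it in No.4. Levels under 5.67 may lie near background. Only Pdgfra was above 5.67 in both colonies. The leukocyte marker Ptprc, the endothelial Cdh5 and the fibroblast genes Dcn and Lum lay below the floor in both colonies. The part of other cells in the results was not tested.

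Most mitotic genes were slightly higher in colony No.8. The median difference of the 36 genes was 0.18 (1.13-fold), beside 0.04 over all genes past the floor. Of the 36 genes, 28 were higher in No.8 and 8 in No.4, so 77.8% lay on the No.8 side, against a background of 53.2% of all genes past the floor (45.5% were higher in No.4) and 51.8% of the 6032 genes past the floor that share the genes' range of mean level (6.40 to 10.74). No mitotic gene reached 2-fold in either direction (background 2.91% in No.8 and 2.57% in No.4). At 1.5-fold, 3 of the 36 were higher in No.8 (8.33%, against a background of 9.87%) and 0 in No.4 (background 7.93%). At a lower limit of 0.32 log2 units, 13 of the 36 were higher in No.8 (36.1%, background 23.4%) and 0 in No.4 (background 18.1%). The share of mitotic genes past 1.5-fold was near that of all genes and is no result about them. The share on the No.8 side was above that of all genes, without a test of this difference. Their differences ran from -0.29 to 0.99 with an SD over genes of 0.30, beside an SD of 0.52 over the genes in the same range of mean level. In a bulk RNA sample, a larger share of cells in mitosis and more of these RNAs per dividing cell cannot be told apart.

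**Figure D1:**
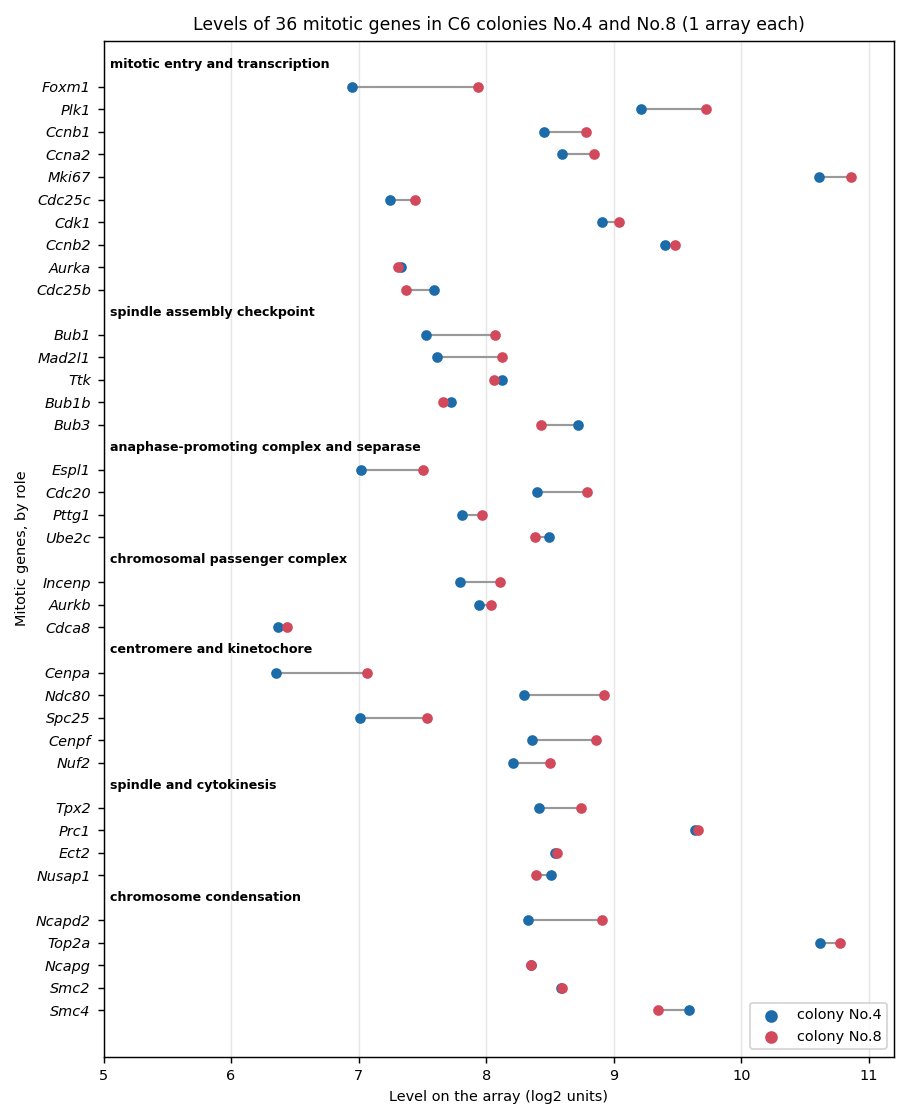
Levels of the 36 mitotic genes (log2 units, horizontal axis) in colony No.4 (blue) and colony No.8 (red), 1 array each, grouped by role and joined by a line for each gene; points of one gene can be compared, points of different genes cannot. Foxm1 has the longest line (6.95 and 7.94). All 5 centromere and kinetochore genes lie higher in No.8, as do 53.2% of all genes past the floor. Bub3, Smc4 and Cdc25b lie higher in No.4.

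The promoters of these genes were searched for motifs of late cell cycle genes, chosen after the array values were seen. Most of the genes are late cell cycle genes, so a high share was to be foreseen. The shares describe the genes and say nothing about the colonies. RefSeq promoter sequences of rat assembly GRCr8 were found for 30 of the 36 measured genes. The 250 bases before each gene's annotated start were searched on both strands for the box CCAAT, which binds the factor NF-Y, and for 2 forms of the cell cycle homology region, TTTGAA and TTTAAA, through which the MuvB complexes time late cell cycle genes. Matches of different motifs were allowed to share bases. Printed below are those windows for 2 of the 3 genes with the largest differences among those with a promoter sequence (Cenpa and Ncapd2, both with motifs), for the remaining one (Ndc80, with none), for the cyclin B pair, and for a gene higher in No.4 (Smc4). They read 5′ to 3′ on the gene's strand and end at the base before the start, with matches in capitals, where ATTGG and TTCAAA are CCAAT and TTTGAA on the opposite strand. The windows are chr6:31431553-31431802 for Cenpa, chr4:159677939-159678188 for Ncapd2, chr9:118887530-118887779 for Ndc80, chr2:33655226-33655475 for Ccnb1 and chr8:79981659-79981908 for Ccnb2, all on the minus strand, and chr2:155550012-155550261 for Smc4 on the plus strand.
Cenpa: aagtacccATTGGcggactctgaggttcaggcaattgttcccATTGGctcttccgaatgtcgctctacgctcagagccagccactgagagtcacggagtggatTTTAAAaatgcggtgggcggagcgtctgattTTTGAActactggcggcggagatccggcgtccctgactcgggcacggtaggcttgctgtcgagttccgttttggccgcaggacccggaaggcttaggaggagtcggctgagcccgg
Ncapd2: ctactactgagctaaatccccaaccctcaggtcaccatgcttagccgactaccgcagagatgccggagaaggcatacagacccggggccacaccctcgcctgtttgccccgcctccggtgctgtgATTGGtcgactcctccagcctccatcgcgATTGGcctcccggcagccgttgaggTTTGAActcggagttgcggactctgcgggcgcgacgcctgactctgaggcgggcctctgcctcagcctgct
Ndc80: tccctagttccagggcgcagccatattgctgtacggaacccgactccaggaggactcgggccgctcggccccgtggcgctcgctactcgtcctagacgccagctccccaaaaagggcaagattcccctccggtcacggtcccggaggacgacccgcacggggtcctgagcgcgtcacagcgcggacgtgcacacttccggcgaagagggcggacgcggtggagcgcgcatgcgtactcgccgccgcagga
Ccnb1: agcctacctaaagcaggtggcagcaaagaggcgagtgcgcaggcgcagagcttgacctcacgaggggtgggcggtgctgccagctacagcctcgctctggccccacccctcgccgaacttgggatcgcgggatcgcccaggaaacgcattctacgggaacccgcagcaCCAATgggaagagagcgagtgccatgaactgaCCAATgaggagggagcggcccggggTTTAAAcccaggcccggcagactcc
Ccnb2: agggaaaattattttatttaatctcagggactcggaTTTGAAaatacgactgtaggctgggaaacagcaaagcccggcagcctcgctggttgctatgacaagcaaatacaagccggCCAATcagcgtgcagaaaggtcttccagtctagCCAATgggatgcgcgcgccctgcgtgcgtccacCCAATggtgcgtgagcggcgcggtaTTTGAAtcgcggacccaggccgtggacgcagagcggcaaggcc
Smc4: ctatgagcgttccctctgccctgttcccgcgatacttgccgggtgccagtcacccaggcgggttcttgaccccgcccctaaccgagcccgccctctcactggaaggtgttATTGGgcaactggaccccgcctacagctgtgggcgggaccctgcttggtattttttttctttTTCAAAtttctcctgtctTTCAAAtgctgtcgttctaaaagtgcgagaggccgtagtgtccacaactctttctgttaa

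The B-type cyclin windows hold CCAAT boxes followed by a cell cycle homology region. Ccnb1 held CCAAT 82 and 50 bases before its start, followed by TTTAAA at 25 bases. Ccnb2 held 3 boxes, at 134, 101 and 68 bases, each 33 bases from the next, followed by TTTGAA at 43 bases. In Ncapd2 the boxes lay at 125 and 96 bases and TTTGAA at 71 bases. CCAAT was found in 24 of the 30 windows (80.0%), beside 36.1% of the windows of 9094 genes past the floor and 34.0% of all 33469 windows in the table. TTTGAA was found in 17 of the 30 windows (56.7%, beside 10.3% and 16.2%) and TTTAAA in 8 (26.7%, beside 7.99% and 12.3%). Both a CCAAT box and a cell cycle homology region stood in 21 of the 30 windows (70.0%), beside 6.45% of windows of genes past the floor. At least 2 CCAAT boxes stood in 18 windows (60.0%, beside 13.0%). Of the 33 neighbouring pairs of boxes in these windows, 20 began 25 to 45 bases apart (60.6%, beside 40.4% of 1753 pairs in genes past the floor), a range chosen after the distances were seen. E2F sites, searched as TTTGGCGC, TTTCCCGC, TTTGCCGC and TTTCGCGC, were found in 1 window, that of Cdk1 (3.33%, beside 3.34%).

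The motifs did not sort the genes by their difference in a single way. The 17 genes with TTTGAA had a median difference of 0.16 and the 13 without 0.29, whereas the 8 genes with TTTAAA had 0.42 and the 22 without 0.14. With either form counted, the median was 0.16 over 23 genes and -0.06 over the 7 without. The 24 genes with CCAAT had a median of 0.14 and the 6 without 0.40. The 4 genes whose windows held none of these motifs, Ndc80, Nuf2, Mad2l1 and Bub1b, had a median of 0.40. A match is a description of letters, and no match says only that these letters are not in this window.

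**Figure D2:**
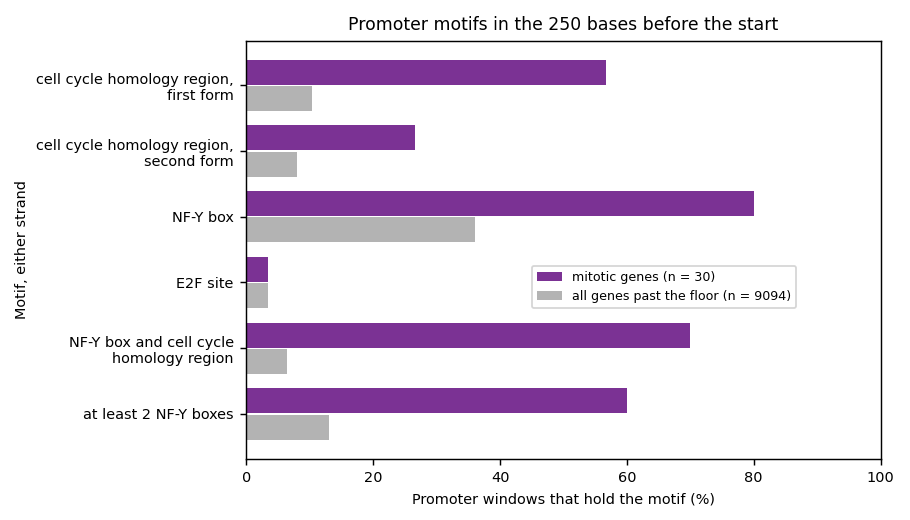
Share of promoter windows (percent, horizontal axis) that hold each motif on either strand, for 30 mitotic genes (purple) and 9094 genes past the floor (grey); the first form of the cell cycle homology region was found in 56.7% and 10.3%, the second in 26.7% and 7.99%, and the E2F site in 3.33% and 3.34%.

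Among genes of mitotic entry, Foxm1 had the largest difference. Foxm1, the transcription factor that activates many genes of mitosis, was at 6.95 in No.4 and 7.94 in No.8, a difference of 0.99 (1.99-fold) that 331 of the 11069 genes past the floor (2.99%) matched or exceeded. The proliferation marker Mki67, whose protein coats mitotic chromosomes, was at 10.61 and 10.86, a difference of 0.25. The difference of Foxm1 was 0.74 larger than that of Mki67.

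The Cdk1 kinase and its cyclins were all higher in No.8 in their brighter features, by 0.08 to 0.33. Cdk1 was at 8.91 and 9.04 (0.13), and Ccna2, the A-type cyclin of S phase and early mitosis, at 8.59 and 8.84 (0.25). Ccnb1 was at 8.46 and 8.79 (0.33), 1.26-fold higher in No.8. Ccnb2, the B-type cyclin that associates with the Golgi, was at 9.40 and 9.48 (0.08), and its dimmer feature, at 8.32 and 8.23, lay on the other side (-0.10). The direction of Ccnb2 was therefore not settled.

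Plk1, the polo-like kinase of centrosome maturation and checkpoint recovery, was at 9.22 in No.4 and 9.72 in No.8, a difference of 0.51 (1.42-fold). Aurora kinase A, a kinase of centrosomes and the spindle, was nearly equal, with Aurka at 7.33 and 7.31 (-0.02). Cdc25c and Cdc25b, phosphatases that remove the inhibitory phosphates from Cdk1, lay on opposite sides. Cdc25c was at 7.24 and 7.44 (0.20) and Cdc25b at 7.59 and 7.37 (-0.22), so their differences were 0.42 apart. Over the 10 genes of mitotic entry the median difference was 0.23, beside 0.04 over all genes past the floor. Of the 10, 8 were higher in No.8 (80.0%, background 53.2%).

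The centromere and kinetochore genes were the role group with the largest median difference, 0.53 (1.44-fold), beside 0.04 over all genes past the floor. All 5 measured members were higher in No.8, against a background of 53.2%. The group was singled out after the values were seen. Further lists of outer kinetochore and inner centromere genes, given below, had smaller medians of 0.17 and 0.15. Cenpa, the histone H3 variant that marks the centromere, had levels of 6.35 and 7.06 (0.71, 1.64-fold). Cenpf, a large protein of the outer kinetochore and nuclear matrix, was at 8.36 and 8.86 (0.50). The Ndc80 complex is the main microtubule attachment of the kinetochore, and 3 of its 4 subunits were measured. Ndc80 was at 8.30 and 8.92 (0.62, 1.54-fold), Spc25 at 7.01 and 7.54 (0.53) and Nuf2, the direct partner of Ndc80, at 8.21 and 8.50 (0.29). The 3 subunits lay on the same side, with Nuf2 0.33 below Ndc80. With an offset of 64 added on the linear scale, which shrinks differences of dimmer genes, Cenpa differed by 0.44 and Ndc80 by 0.53, both under the 1.5-fold limit. Without these 5 genes the median of the other 31 was 0.13. Of the 31, 23 were higher in No.8 (74.2%, background 53.2%) and 1, Foxm1, reached 1.5-fold (3.23%, background 9.87%).

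The checkpoint genes split. Bub1, the kinase that recruits other checkpoint proteins to kinetochores, had levels of 7.53 and 8.07 (0.54, 1.46-fold), and Mad2l1, which encodes the inhibitor Mad2 of the anaphase-promoting complex, at 7.62 and 8.12 (0.50, 1.42-fold). Bub3, the adaptor that carries Bub1 and BubR1 to the kinetochore, lay the other way, at 8.72 and 8.43 (-0.29, 1.22-fold higher in No.4). This was the lowest difference of the 36 genes, 0.83 below that of Bub1. Bub1b, which encodes BubR1 of the same checkpoint, was at 7.73 and 7.66 (-0.07). Ttk, the Mps1 kinase at the head of the pathway, was at 8.12 and 8.06 (-0.06). The median of the 5 genes was -0.06 and their mean 0.13, so the summary of this group took its sign from the measure used.

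Of the genes that act at the step from metaphase to anaphase, 3 of 4 were higher in No.8. Cdc20, the activator of the anaphase-promoting complex that the checkpoint restrains, was at 8.40 and 8.79 (0.39, 1.31-fold), and Espl1, which encodes separase, at 7.02 and 7.51 (0.49, 1.40-fold). Pttg1, the gene of securin, the inhibitor of separase, was at 7.81 and 7.97 (0.16). Ube2c, the ubiquitin-conjugating enzyme that works with the complex, was at 8.49 and 8.38 (-0.11). The median of the group was 0.28.

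The chromosomal passenger complex corrects faulty attachments and later directs cytokinesis, and its 3 measured genes differed little. Incenp, its scaffold, was at 7.80 and 8.11 (0.31, 1.24-fold), Aurkb, its kinase, at 7.94 and 8.04 (0.10), and Cdca8, which encodes borealin, at 6.37 and 6.44 (0.07). All 3 were on the No.8 side (background 53.2%), and none reached a difference of 0.32 (background 23.4%). So few genes give no result about the complex. Genes of the spindle and of cytokinesis lay close to level, with a median of 0.02 over 4 genes. Tpx2, which activates Aurora A on spindle microtubules, was at 8.41 and 8.74 (0.33). Prc1, which bundles midzone microtubules, was at 9.64 and 9.66 (0.02), Ect2, the exchange factor that activates RhoA for the contractile ring, at 8.54 and 8.56 (0.02), and the spindle protein gene Nusap1 at 8.51 and 8.39 (-0.12). Among these 4 only Tpx2 differed by 0.32 or more.

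Chromosome condensation genes were mostly level, with the widest differences on opposite sides. Ncapd2, a HEAT-repeat subunit of condensin I, had levels of 8.33 and 8.91 (0.58, just under the 1.5-fold limit). Smc4, a core ATPase subunit shared by condensin I and condensin II, was at 9.59 and 9.34 (-0.25), so these subunits of the same complex were 0.83 apart. The other core subunit gene, Smc2, was at 8.59 in both colonies (0.0070), and Ncapg, a further condensin I subunit, at 8.35 in both (0.0071). Top2a, the topoisomerase that disentangles sister chromatids, was at 10.61 and 10.77 (0.16). The median of the 5 genes was 0.0071.

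**Figure D3:**
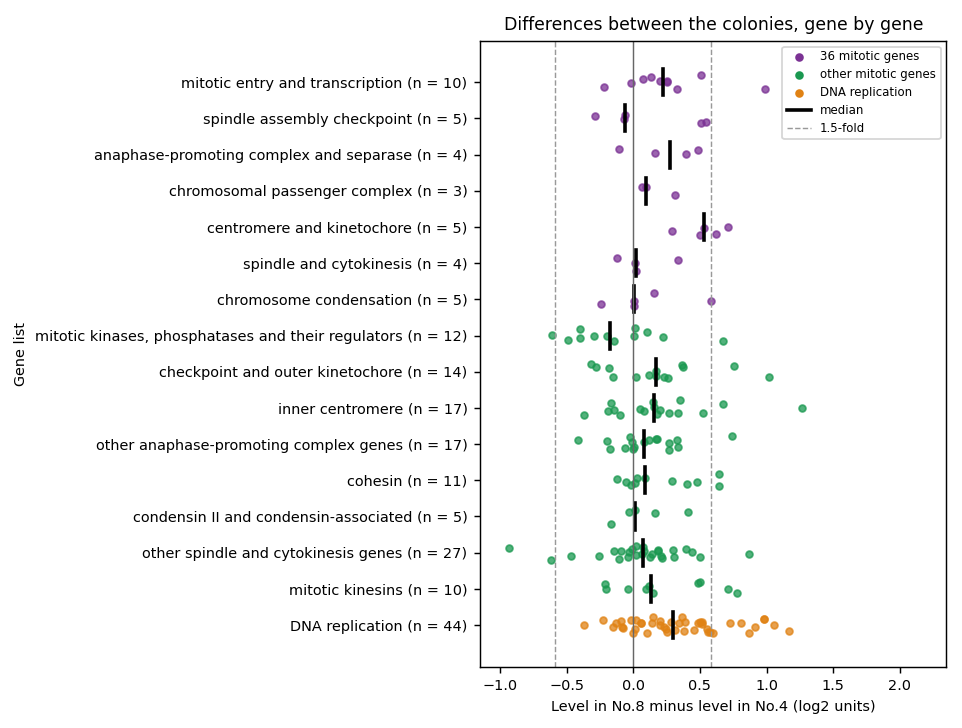
Difference of every measured gene (log2 units, No.8 minus No.4, horizontal axis) by list: roles of the 36 mitotic genes (purple), other mitotic genes (green) and DNA replication (orange), with the median of each list as a black bar and 1.5-fold as dashed lines. The centromere and kinetochore genes lie between 0.29 and 0.71, the condensation genes have a median of 0.0071, and the replication genes one of 0.30.

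**Figure D4:**
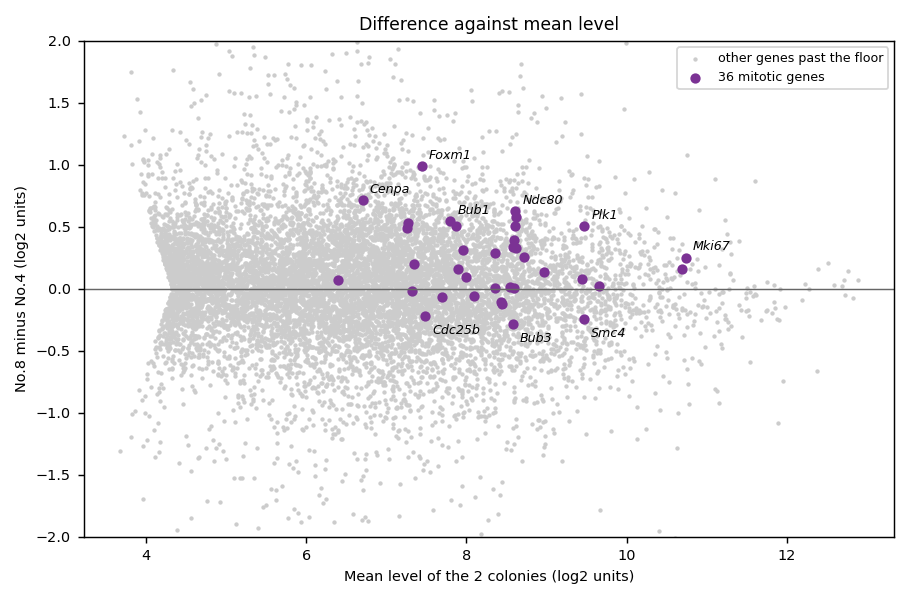
Difference (log2 units, vertical axis) against the mean level of the 2 colonies (log2 units, horizontal axis) for genes past the floor (grey) and the 36 mitotic genes (purple), with 9 of them named; 96 genes differ by more than 2 units and lie outside the plot. The mitotic genes lie between -0.29 and 0.99, inside the grey cloud at their levels.

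Other genes of mitosis, from lists with no gene in common with the 36, lay closer to the background. Of 124 listed genes 113 were measured, with a median difference of 0.09. Of these, 72 were higher in No.8 (63.7%, background 53.2%) and 40 in No.4 (background 45.5%). At 1.5-fold 11 were higher in No.8 (9.73%, background 9.87%) and 3 in No.4 (2.65%, background 7.93%). The 14 further checkpoint and outer kinetochore genes had a median of 0.17 and 10 were higher in No.8 (71.4%). Ska2 of the Ska complex, which steadies kinetochores on microtubules, led them (6.02 and 7.04, 1.01). Next were the Mad2 partner Mad1l1 (5.72 and 6.48, 0.76) and Dsn1 of the Mis12 complex (6.85 and 7.23, 0.37). The 17 genes listed as inner centromere had a median of 0.15 and 12 were higher in No.8 (70.6%). The list also holds Cenpj (-0.17), a gene of centrioles. The 17 were led by Cenpp (4.51 and 5.77, 1.27), Cenpi (6.19 and 6.86, 0.67) and Oip5, a factor for loading Cenpa (7.33 and 7.85, 0.52). Cenpp in No.4 lay under 5.67, close to background. Hjurp, the chaperone of Cenpa, was nearly level (8.15 and 8.23). Hjurp and Cenpj were named after their values were seen.

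Over 12 mitotic kinases, phosphatases and their regulators outside the 36 the median was -0.17. Of these, 7 were higher in No.4 (background 45.5%) and 5 in No.8 (41.7%, background 53.2%). The largest difference was that of the phosphatase gene Cdc14a, higher in No.8 (6.11 and 6.79, 0.67). Mastl, the Greatwall kinase that holds back a phosphatase opposing Cdk1, was higher in No.4 (a difference of -0.61), as was Ccnf, which encodes cyclin F (-0.49). Ensa and Arpp19, the substrates of Mastl in that pathway, were at 5.71 and 5.31 (-0.40) and at 4.83 and 4.43 (-0.40). Both were named after their values were seen, and both have levels near or under 5.67.

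The 17 other genes of the anaphase-promoting complex had a median of 0.08, with its G1 activator Fzr1 highest (7.21 and 7.96, 0.74), Anapc7 lower in No.8 (6.67 and 6.25, -0.42) and Anapc2 at 0.33. Among 11 cohesin genes the median was 0.09. The cohesin regulator gene Pds5b (7.82 and 8.47, 0.64) and the ring subunit genes Smc1a (8.80 and 9.44, 0.64) and Smc3 (9.32 and 9.80, 0.48) were higher in No.8. Rad21, the subunit that separase cuts, was at 9.69 and 9.77, and was named after its values were seen. Condensin II and associated genes had a median of 0.01 over 5 genes, and the largest differences were those of Ncapd3 (0.41), Ncapg2 (-0.17) and the chromokinesin gene Kif4a (0.16).

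The 27 further spindle and cytokinesis genes had a median of 0.07. Their largest differences belonged to the augmin subunit genes Haus3 (7.71 and 6.78, -0.93) and Haus8 (6.63 and 6.01, -0.62), both higher in No.4, and to Fam83d, a spindle anchor of casein kinase (7.58 and 8.44, 0.87). The other 6 augmin genes, looked at after these values were seen, lay between 0.02 and 0.40, so subunits of this complex differed in direction. Over 10 mitotic kinesin genes the median was 0.13, with Kif2c, the microtubule depolymerase of the centromere (7.54 and 8.32, 0.78), Kifc1 (6.40 and 7.11, 0.71) and Kif15 (7.11 and 7.61, 0.50) higher in No.8.

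DNA replication genes, which act in the preceding S phase, were set beside the mitotic genes. Over 44 genes the median difference was 0.30, beside 0.18 for the 36 mitotic genes. Of the 44, 35 were higher in No.8 (79.5%), beside 77.8% of the mitotic genes and a background of 53.2%. At 1.5-fold 9 of 44 (20.5%) were higher in No.8, beside 3 of 36 mitotic genes (8.33%) and the background of 9.87%. The largest differences were those of Mcm6 of the replicative helicase (7.97 and 9.13, 1.17), Pola2 of the polymerase alpha complex (6.35 and 7.41, 1.06) and Mcm7 (7.70 and 8.69, 0.98). Foxm1 (0.99) was the only mitotic gene of the 36 in the range of these 3. Both lists come from the same 2 arrays, and the difference between their medians was not tested.

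**Figure D5:**
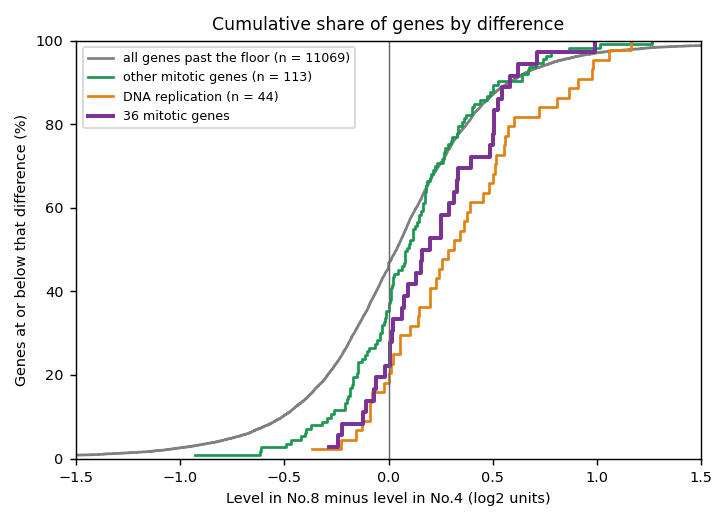
Cumulative share of genes (percent, vertical axis) at or below each difference (log2 units, No.8 minus No.4, horizontal axis, shown from -1.5 to 1.5) for 36 mitotic genes, 113 other mitotic genes, 44 DNA replication genes and 11069 genes past the floor. At the 50% line the mitotic genes (median 0.18) lie between all genes (0.04) and DNA replication (0.30).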

How the data were processed

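Total RNA of 2 C6 colonies was hybridised as biotin-labelled sense cDNA, per the labels' protocols, on 1 whole-transcript array per colony. The deposited table holds log2 values for 36685 features. How the authors made them is not stated in those labels. Base 2 was inferred from the highest value, 13.34. Quartiles of the 2 columns nearly coincide (medians 4.34 and 4.31), so no scaling was added. Features with exactly 1 gene symbol (18511) were kept, 575 with several and 17599 with none were left out, and the feature with the highest mean level stood for a gene. All results are descriptions (Python 3.11.15, pandas 2.3.3). Steps were tested on simulated data. The number of arrays limits the precision. The members and lists were chosen with earlier results of these data known. Any of the 36 genes could be named, and of other lists the 3 genes past the floor with the largest differences and those at 1 log2 unit or more. Alternatives were other scalings, features, offsets, level filters, summaries and folds. Promoters were matched by symbol. Their motifs were chosen after the array values were seen.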

Additional observations from a re-analysis of the deposited data

How the results depend on the processing

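No paired analysis was possible because each colony has 1 array. Over 8 alternatives the median difference of the 36 genes stayed between 0.14 and 0.22, and that of the other mitotic genes between 0.05 and 0.11. Over 7 alternatives 24 to 28 of the genes were higher in No.8, with 24 after centring on the median difference. Several of these could hardly change the count. The level filter left out none of the 36 genes, an offset cannot change a sign, and the choice of feature touched only Ccnb2. The level filter and the choices of feature also left the median at 0.18, so only the other alternatives bear on its stability. In choices made after the data were seen, the median was 0.16 without Foxm1 and 0.13 without the centromere and kinetochore genes. The count at least 1.5-fold higher in No.8 was 3, and became 2 after centring, 1 with an offset of 64 on the linear scale (Foxm1), 0 at 2-fold and 13 at a limit of 0.32 log2 units. Loess and quantile normalization each gave 4. No gene at 1.5-fold changed sign, but these alternatives could hardly bring that about. Each such gene has 1 feature, and the scalings moved its difference little, so this gives no support for a direction. In 5 genes, none differing by more than 0.08, the sign changed under at least 1 alternative: Ccnb2, Ect2, Ncapg, Prc1 and Smc2. A move of under 0.1 log2 was taken as none, since there is no replicate spread. Signal over background is not known for these values.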

Other observations

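The genes next to the mitotic genes on the chromosomes were set beside them, taking the nearest gene past the floor on each side in the RefSeq order of assembly GRCr8. The 72 neighbours that are not themselves among the 36 had a median difference of 0.03, and 40 were higher in No.8 (background 53.2%). At 1.5-fold 11 were higher in No.8 (15.3%, background 9.87%) and 4 in No.4 (5.56%, background 7.93%). Of the 72, 44 lay on the same side as their mitotic gene and 28 on the other. The share among genes that are not neighbours was not worked out, so the 44 and 28 are no result about neighbours. The neighbours below were named after their values were seen. Rhno1, a DNA damage response gene beside Foxm1, was at 5.65 in No.4 and 6.33 in No.8 (0.68), the same side as Foxm1, with the No.4 level near 5.67, the 99th percentile of olfactory receptor genes. Prkcb, the protein kinase C beta gene beside Plk1, was at 2.95 and 8.98, the largest difference toward No.8 of all genes past the floor, while Dctn5 on the other side of Plk1 differed by 0.41. Both neighbours of Cenpa were higher in No.8, Dpysl5 at 4.43 and 6.59 and Slc35f6 with a difference of 0.56. Both neighbours of Bub3 were higher in No.4, Chst15 at 6.64 and 5.17 and Hmx2 at 5.74 and 5.33. On the side opposite to their mitotic gene, and higher in No.4, lay Asrgl1 beside Incenp (-0.79) and Bbs7 beside Ccna2 (-0.66). So did the BIM gene Bcl2l11 beside Bub1 (-0.65) and Stk39 beside Spc25 (-0.52). Also opposite, but higher in No.8, were Tnnc2 beside Ube2c (3.56 and 4.49, 0.93) and Oip5 beside Nusap1 (0.52). Array features were not placed on the assembly, and levels under 5.67 may lie near background.

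Of 5 known targets of Foxm1 among the 36, a list chosen after the values were seen, Plk1 (0.51), Cenpf (0.50), Ccnb1 (0.33) and Aurkb (0.10) were higher in No.8 and Cdc25b (-0.22) in No.4. Their median was 0.33, beside 0.18 over the 36, which include these 5. The share higher in No.8 was 80.0%, near the 77.8% of the 36 (background 53.2%). Being chosen with the values known, the list cannot show whether targets follow Foxm1. The other mitotic genes were not sorted by whether Foxm1 targets them, and a link to Foxm1 was not tested.

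Exactly equal values in both colonies were found for 145 of the genes past the floor (1.31%), such as Anapc10 (6.24) and Orc6 (6.90), and for 0 of the 36 mitotic genes.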
